A study of Mus musculus with 10 samples.

Results

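The ligands of the ERBB receptors were followed in mammary tumours of 10 mice. They comprise 10 genes, picked by symbol from the 26063 genes of the deposited table. Egf, Tgfa, Areg and Epgn encode ligands that bind EGFR alone, Hbegf, Btc and Ereg encode ligands of EGFR that also bind ERBB4, and Nrg1, Nrg2 and Nrg4 encode neuregulins, the ligands of ERBB3 and ERBB4. The 7 EGFR ligands are described apart from the 3 neuregulins. The tumours came from 5 female FVB/N mice of genotype 16IC/WT (16IC) and 5 of genotype EIC/WT (EIC). All 10 mice carried the label of doxycycline treatment at 2 mg/ml, and tumours were frozen after collection at end point. The series title names HER2 and ENPP1, but the labels spell out neither genotype name, nor the promoter or cells that drive a transgene, nor the age of the mice. Each library is 1 tumour, numbered here within its genotype.

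EGF-family ligands are made as membrane-bound precursors, and most are cut free by metalloproteases such as ADAM17 and ADAM10. A ligand joins 2 receptors into a pair, which then signals through the RAS-MAPK and PI3K pathways. ERBB2 has no ligand of its own and is the favoured partner of the other receptors, while ERBB3 has little kinase activity and depends on its partner. In the mammary gland amphiregulin (Areg) is the EGFR ligand through which oestrogen drives the growth of the ducts, and neuregulins act on the lobules that make milk.

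Of the EGFR ligand genes, 4 lie side by side on chromosome 5 (GRCm38, positions of the deposited table). Epgn occupies bases 91027464 to 91035215, Ereg 91074622 to 91093646 and Areg 91139599 to 91148432, all on the plus strand, and Btc 91357261 to 91402994 on the minus strand. The gaps between them are 39.4, 46.0 and 209 kb, and the whole stretch from the start of Epgn to the end of Btc spans 376 kb. Because 3 of the 4 genes of the chromosome 5 cluster had lower mean levels in 16IC and the last did not, the sequences just upstream of Epgn, Areg and Btc are shown. They are RefSeq promoters of GRCm38.p6, at chr5:91027267-91027463 (plus strand), chr5:91139349-91139598 (plus) and chr5:91402995-91403244 (minus), and each ends at the base before the gene starts in the deposited table. Capitals mark the motifs found.
Epgn: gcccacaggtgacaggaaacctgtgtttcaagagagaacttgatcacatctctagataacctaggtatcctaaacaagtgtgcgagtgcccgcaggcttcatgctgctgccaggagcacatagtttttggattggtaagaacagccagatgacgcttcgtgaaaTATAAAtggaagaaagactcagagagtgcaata
Areg: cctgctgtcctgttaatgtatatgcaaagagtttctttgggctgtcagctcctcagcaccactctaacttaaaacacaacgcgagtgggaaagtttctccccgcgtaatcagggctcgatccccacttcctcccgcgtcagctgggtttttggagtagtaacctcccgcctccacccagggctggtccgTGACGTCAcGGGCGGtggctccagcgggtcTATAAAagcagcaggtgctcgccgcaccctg
Btc: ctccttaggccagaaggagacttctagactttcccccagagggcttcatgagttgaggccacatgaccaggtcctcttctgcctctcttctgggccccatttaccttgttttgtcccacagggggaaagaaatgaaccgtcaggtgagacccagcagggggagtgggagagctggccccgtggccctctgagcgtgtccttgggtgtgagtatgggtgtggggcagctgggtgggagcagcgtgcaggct
The windows were searched on both strands for 4 motifs, and no 2 matches overlapped. The Areg window held a cyclic AMP response element, TGACGTCA, whose first base is 61 bases before the start, a GC box, GGGCGG, 52 bases before it, and a TATA box, TATAAA, 31 bases before it. The Epgn window held a TATA box 33 bases before the start of the gene in the deposited table, but 86 bases before the RefSeq start. The Btc window held none of the 4, and the AP-1 motif TGANTCA was in none of these 3 windows. Of all 32851 RefSeq promoters, searched over 250 bases before the RefSeq start, 1.55% held the cyclic AMP response element, 6.75% the AP-1 motif, 12.4% the TATA box and 32.7% the GC box. The Epgn window shown is shorter, at 197 bases. RefSeq promoters were at hand for 6 of the 10 ligands.

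Depth was similar in all libraries, from 14813940 to 16947400 counts. Mitochondrial genes took 0.549% to 1.41% of the counts. Luminal epithelial keratins, claudins and adhesion genes, which define the labelled tissue, were abundant in all tumours, with a summed level over 10 genes of 4347 to 6160 CPM (counts scaled to a common library size after TMM normalization) in 16IC and 4466 to 6852 in EIC. These are bulk tumours, so fewer cells of a type and less RNA per cell cannot be told apart. Differences are log2 of 16IC over EIC from edgeR's quasi-likelihood test, adjusted by Benjamini-Hochberg over all 14915 genes tested, with 0.05 as the threshold. In this test 0 of the 14915 genes passed (0% called), so 0 of the 10 ligands passed. Without adjustment 1958 genes (13.1%) had p under 0.05, and 938 (6.29%) were lower in 16IC with such a p. DESeq2, run on the same counts, called 356 of 16838 genes (2.11%), of which 214 (1.27%) were lower in 16IC.

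All 10 ligands passed the filter on low counts, but several did so mainly through EIC. Ereg reached 10 counts in 1 of 5 16IC libraries and 4 of 5 EIC libraries, Areg in 2 and 5, Epgn in 2 and 4, Nrg4 in 2 and 5, and Nrg1 in 3 and 4. The other 5 ligands reached it in all 10 libraries. Of the 10 ligands, 7 were lower and 3 higher in 16IC on average, against 47.7% of all tested genes that were higher. The median log2 difference was -0.65 over the 10 ligands and -1.91 over the 7 EGFR ligands, beside -0.02 over all genes tested. Counts and medians in this paragraph include the ligands that passed the filter mainly through EIC, and they depend on them. Ereg, Areg, Epgn, Nrg1 and Nrg4 were all lower in 16IC. Of the other 5 ligands, Egf, Btc and Nrg2 were higher and Tgfa and Hbegf lower. The ligands were also chosen with earlier results of these data known, so these values are a description. Of the 10, 3 (Hbegf, Ereg and Areg) had an unadjusted edgeR p under 0.05, all lower in 16IC, beside 6.29% of all tested genes. Ereg and Areg are among those that passed the filter mainly through EIC. DESeq2 called 2 of the 10, Hbegf and Ereg, both lower in 16IC, beside 1.27% of the genes it tested. Hbegf alone among the ligands had 2 groups without overlap, which was so for 2.58% of all tested genes and, with 16IC lower, for 1.19%.

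**Figure D1:**
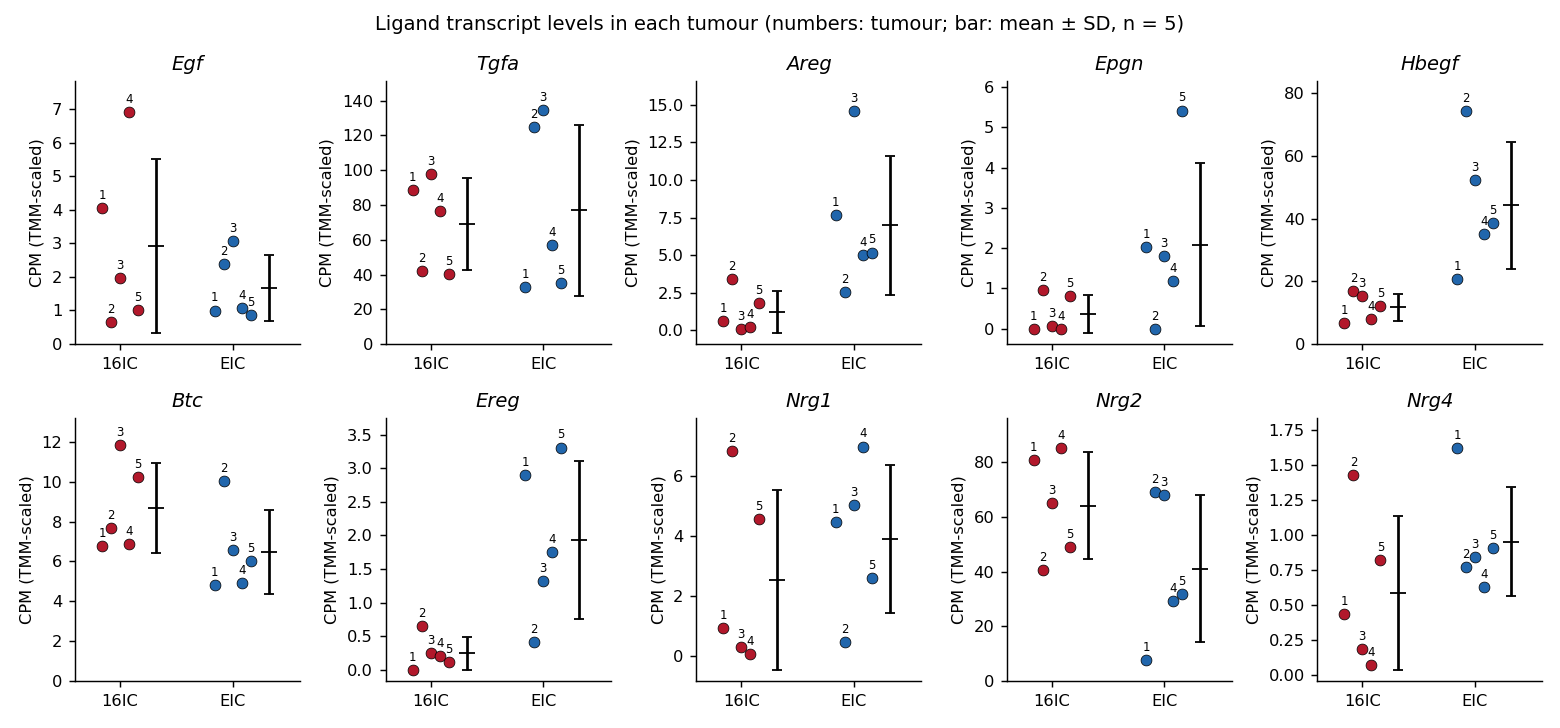
Level of each ligand in CPM in every tumour, on a linear axis per ligand, with 16IC left of EIC; each numbered point is 1 tumour and the bar is the mean ± SD of 5 tumours. For Hbegf the 16IC tumours lie between 6.77 and 16.8 CPM, all under the EIC tumours.

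Among the ligands of both EGFR and ERBB4, Hbegf was the one with the clearest difference. Hbegf encodes heparin-binding EGF-like growth factor, whose precursor is also the diphtheria toxin receptor in humans. The gene lies on the minus strand of chromosome 18 (36504929 to 36515805), 308 kb from Nrg2 (36017707 to 36197380), which is on the same strand. Its level was 6.77, 16.8, 15.2, 8.09 and 12.02 CPM in 16IC 1 to 5, against 20.9, 74.2, 52.3, 35.2 and 38.5 CPM in EIC 1 to 5. The highest 16IC tumour was below the lowest EIC tumour. The mean was 11.8 ± 4.36 CPM in 16IC and 44.2 ± 20.1 CPM in EIC (SD, n = 5 each), a ratio of 0.266. edgeR gave a log2 difference of -1.91 (SE 0.36, 95% interval -2.71 to -1.10, adjusted p = 0.186, unadjusted p = 0.000325). The exact two-sided permutation test gave p = 0.00794, the smallest that 5 tumours against 5 allow. DESeq2 called the same difference (log2 -1.91, adjusted p = 2.50e-04), and did so whichever tumour was left out, with adjusted p of at most 0.00406.

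Ereg encodes epiregulin, which binds EGFR and ERBB4 with low affinity and signals for long. It was scarce everywhere, with 0, 0.654, 0.243, 0.206 and 0.117 CPM in 16IC 1 to 5, against 2.90, 0.416, 1.32, 1.75 and 3.31 CPM in EIC 1 to 5. The groups overlapped through EIC 2, which lay below 16IC 2. The count of 0 in 16IC 1 allows up to 0.216 CPM (3 counts, counting error only). Means were 0.244 ± 0.248 CPM in 16IC and 1.94 ± 1.18 CPM in EIC (SD, n = 5 each). Ereg differed by -2.93 on the log2 scale (SE 0.78, 95% interval -4.65 to -1.21, edgeR adjusted p = 0.261, exact permutation p = 0.0159). DESeq2 called it (log2 -2.98, adjusted p = 0.00968), but not without EIC 1 or EIC 5, where the adjusted p was at most 0.0598.

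Btc, betacellulin, was the member of this group that was not lower in 16IC. It had 6.77, 7.67, 11.9, 6.86 and 10.3 CPM in 16IC 1 to 5, against 4.81, 10.04, 6.59, 4.94 and 6.02 CPM in EIC 1 to 5. The ranges overlapped through EIC 2, and the other 4 EIC tumours were below all 16IC tumours. Btc differed by 0.42 on the log2 scale (SE 0.28, 95% interval -0.19 to 1.03, edgeR adjusted p = 0.513, exact permutation p = 0.103), and by 0.64 without EIC 2.

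Among the ligands of EGFR alone, Areg and Epgn were lower in 16IC on average, each with a wide spread between tumours. Areg had 0.648, 3.45, 0.0608, 0.206 and 1.82 CPM in 16IC 1 to 5, against 7.65, 2.55, 14.6, 5.001 and 5.18 CPM in EIC 1 to 5. Only 16IC 2 reached into the EIC range, and it exceeded EIC 2 alone. The mean was 1.24 ± 1.42 CPM in 16IC and 7.001 ± 4.62 CPM in EIC (SD, n = 5 each), a ratio of 0.177. The log2 difference was -2.49 (SE 0.87, 95% interval -4.41 to -0.56, edgeR adjusted p = 0.305, exact permutation p = 0.0159). DESeq2 placed it just outside its calls (adjusted p = 0.0602) and called it once 16IC 2 (log2 -3.34, adjusted p = 0.00233) or EIC 2 (log2 -2.72, adjusted p = 0.0277) was left out.

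Epgn encodes epigen, a low-affinity EGFR ligand. It had 0, 0.952, 0.0608, 0 and 0.821 CPM in 16IC 1 to 5, against 2.03, 0, 1.80, 1.19 and 5.42 CPM in EIC 1 to 5. Apart from EIC 2, where it was not detected, all EIC tumours were above all 16IC tumours. A count of 0 allows up to 0.216 CPM in 16IC 1, 0.206 in 16IC 4 and 0.178 in EIC 2. The log2 difference was -2.45 (SE 1.23, 95% interval -5.18 to 0.27, edgeR adjusted p = 0.412, exact permutation p = 0.0952), and DESeq2 gave an adjusted p of 0.308.

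Tgfa, transforming growth factor alpha, and Egf showed no difference beyond the spread between tumours. They lie on chromosome 6 (86195223 to 86275719, plus strand) and chromosome 3 (129677565 to 129755316, minus strand). Tgfa was abundant, with 88.5, 41.9, 97.6, 76.8 and 40.4 CPM in 16IC 1 to 5, against 32.9, 125, 135, 57.0 and 35.4 CPM in EIC 1 to 5. High and low tumours occurred in both genotypes, and the EIC range contained the whole 16IC range. The log2 difference was -0.16 (SE 0.45, 95% interval -1.15 to 0.83, edgeR adjusted p = 0.893, exact permutation p = 1), and its sign changed when EIC 2 (0.10) or EIC 3 (0.14) was left out. Egf itself had 4.03, 0.654, 1.95, 6.92 and 0.997 CPM in 16IC 1 to 5, against 0.985, 2.38, 3.06, 1.063 and 0.843 CPM in EIC 1 to 5. Here 16IC 1 and 16IC 4 were above all EIC tumours and 16IC 2 was below all of them. For Egf it was 0.80 on the log2 scale (SE 0.66, 95% interval -0.66 to 2.26, edgeR adjusted p = 0.601, exact permutation p = 0.508), and it fell to 0.21 without 16IC 4.

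Among the ligands of ERBB3 and ERBB4, Nrg2 was by far the most abundant. Nrg2 had 80.9, 40.4, 65.0, 85.3 and 49.0 CPM in 16IC 1 to 5, against 7.53, 69.2, 68.1, 29.2 and 31.7 CPM in EIC 1 to 5. EIC 1, EIC 4 and EIC 5 were below all 16IC tumours, and EIC 2 and EIC 3 were within the 16IC range. Means were 64.1 ± 19.5 CPM in 16IC and 41.2 ± 26.8 CPM in EIC (SD, n = 5 each). For Nrg2 the log2 difference was 0.64 (SE 0.49, 95% interval -0.45 to 1.73, edgeR adjusted p = 0.577, exact permutation p = 0.159). It was 0.37 without EIC 1 and 1.47 with limma's voom (unadjusted p = 0.0194, adjusted p = 0.215).

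Nrg1 (chromosome 8, 31814551 to 32884029, minus strand), the neuregulin best studied in the breast, had 0.937, 6.84, 0.304, 0.0686 and 4.57 CPM in 16IC 1 to 5, against 4.46, 0.475, 5.03, 7.002 and 2.59 CPM in EIC 1 to 5. The 16IC tumours split widely, with 16IC 2 and 16IC 5 at EIC levels and the other 3 under 1 CPM. For Nrg1 the log2 difference was -0.61 (SE 0.99, 95% interval -2.81 to 1.58, edgeR adjusted p = 0.801, exact permutation p = 0.302). It moved between -1.40 (without 16IC 2) and -0.30 (without 16IC 4) when 1 tumour was left out, by over 1.5 times also without 16IC 1, 16IC 3, 16IC 5 or EIC 4, and was -1.81 with limma's voom (adjusted p = 0.358). Nrg4 (chromosome 9, 55220222 to 55326844, minus strand), a ligand of ERBB4 known as a secreted product of brown fat, had 0.432, 1.43, 0.182, 0.0686 and 0.821 CPM in 16IC 1 to 5, against 1.62, 0.772, 0.839, 0.625 and 0.903 CPM in EIC 1 to 5. The ranges overlapped, and the log2 difference was -0.68 (SE 0.65, 95% interval -2.11 to 0.75, edgeR adjusted p = 0.649, exact permutation p = 0.159). It was -1.31 without 16IC 2, -0.45 without 16IC 3, -0.41 without 16IC 4 or EIC 1, and -1.19 with limma's voom (adjusted p = 0.348). The Nrg4 values are uncertain, because 368 bases of its exons (6.06%) overlap Fbxo22 on the opposite strand and no source used here gives the strand setting of the counting.

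**Figure D2:**
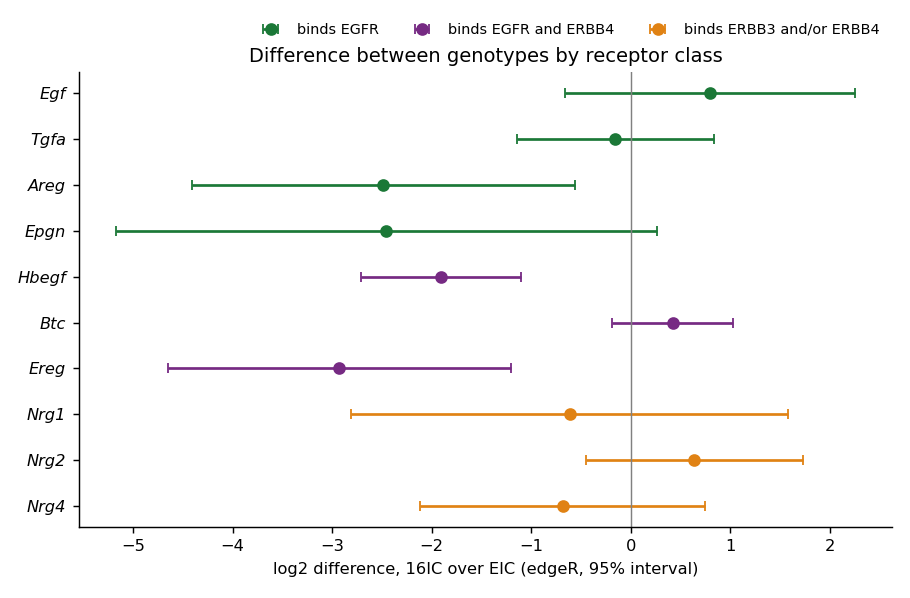
Log2 difference of each ligand, 16IC over EIC, with its 95% interval from edgeR, the ligands of EGFR above the neuregulins. The intervals of Hbegf, Ereg and Areg lie wholly below 0 and those of the other 7 ligands include 0; the intervals are not adjusted for the number of genes.

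Levels of different ligands were compared per length, with the authors' FPKM values. In 16IC the order by mean was Nrg2 (20.2 ± 6.23 FPKM), Tgfa (10.3 ± 3.90), Hbegf (4.78 ± 1.72), Btc (1.85 ± 0.47) and Areg (0.98 ± 1.12), followed by Egf, Nrg1, Epgn, Nrg4 and Ereg, each at 0.25 FPKM or less (SD, n = 5). In EIC the order was Hbegf (18.1 ± 8.13 FPKM), Nrg2 (12.9 ± 8.39), Tgfa (11.5 ± 7.30), Areg (5.61 ± 3.69), Btc (1.39 ± 0.45) and Epgn (1.13 ± 1.09), followed by Ereg, Nrg1, Nrg4 and Egf, each at 0.46 FPKM or less. In 16IC Nrg2, Tgfa and Hbegf each stood above the next ligand by more than the larger of their 2 SDs, and no later neighbours did. In EIC the group means of the first 3 ligands did not differ by more than the larger SD between tumours. Nor did those of Tgfa and Areg, while Areg stood above Btc. Within single tumours the order was steadier: Hbegf ranked 1, 1, 2, 1 and 1 in EIC 1 to 5, and Tgfa ranked 3 in each. Hbegf was thus the most abundant ligand transcript on average in EIC and the third in 16IC.

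The makeup of the EGFR ligand transcripts differed accordingly. Summed over the 7 genes, EGFR ligands had 18.4 ± 2.86 FPKM in 16IC and 38.3 ± 15.2 FPKM in EIC (SD, n = 5 each). Hbegf made up 15.1% to 37.7% of that sum in 16IC and 38.0% to 56.7% in EIC, and Tgfa 34.3% to 72.2% in 16IC and 17.5% to 35.9% in EIC. The ranges of the Hbegf share touch without overlapping, while those of the Tgfa share overlap. Tgfa exceeded Hbegf in 4 of 5 16IC tumours and in 0 of 5 EIC tumours. The ratio of Tgfa to Hbegf had a median of 2.35 in 16IC (0.910 to 4.78) and 0.592 in EIC (0.335 to 0.942). The neuregulins summed to 13.4 to 26.8 FPKM in 16IC and 3.13 to 22.0 FPKM in EIC. Nrg2 gave 93.6% to 99.9% of that sum in 16IC and 77.8% to 99.2% in EIC. Of the sum over all 10 ligands, Nrg2 made up 40.0% to 61.1% in 16IC and 9.31% to 28.9% in EIC, ranges that do not overlap. These shares are descriptions without a test, and the lower Hbegf level enters each of them but the share of Nrg2 among neuregulins.

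**Figure D3:**
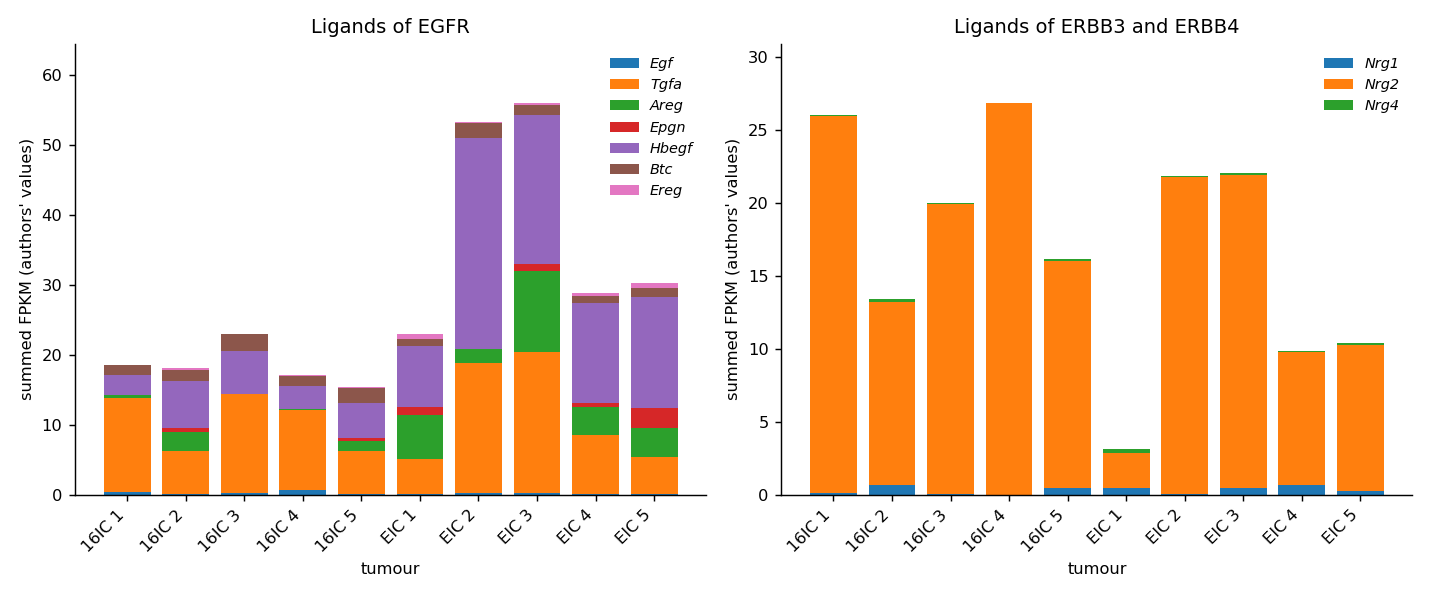
Summed FPKM of the 7 EGFR ligands (left panel) and the 3 neuregulins (right panel) in each tumour, stacked by ligand, with the 16IC tumours left of the EIC tumours. Hbegf takes 15.1% to 37.7% of the 16IC bars and 38.0% to 56.7% of the EIC bars in the left panel, and Nrg2 fills nearly all of the right panel.

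Tumours of 1 genotype differed among themselves in which ligands they held. Within 16IC, tumours 2 and 5 had the highest Areg, Epgn, Nrg1 and Nrg4 levels and the lowest Tgfa, Nrg2 and Egf levels of the 5. Within EIC, tumours 2 and 3 had the highest Tgfa, Nrg2, Egf and Hbegf levels, and tumour 2 had the lowest Areg, Epgn, Ereg and Nrg1 levels. Of the 45 pairs of ligands, 0 passed Benjamini-Hochberg adjustment of the permutation p of Pearson's r over the 10 tumours (log2 CPM, smallest adjusted p 0.0505). The pairs given here were chosen after their values were seen. Epgn and Ereg had a Pearson r of 0.82 (permutation p = 0.0059, adjusted 0.0505) and a Spearman rho of 0.82 (permutation p = 0.0053, adjusted 0.0700). Their r was 0.87 without the 2 tumours farthest from the median of Epgn and 0.77 after each genotype was centred on its mean. Tgfa and Nrg2 had an r of 0.73 (permutation p = 0.0062, adjusted 0.0505) and a rho of 0.71 (permutation p = 0.0271, adjusted 0.0939), with 0.75 without 2 tumours and 0.83 within genotypes. The pairs with the smallest p were Nrg1 with Nrg4 (r = 0.83, permutation p = 0.00279, adjusted 0.0505; rho = 0.59, permutation p = 0.0820, adjusted 0.154) and Areg with Nrg4 (r = 0.84, permutation p = 0.00305, adjusted 0.0505; rho = 0.79, permutation p = 0.00934, adjusted 0.0700). Without the 2 tumours farthest from the median of Nrg1 or of Areg, their r was 0.47 and 0.54, and within genotypes it was 0.80 and 0.82. Leaving out the tumours extreme in 1 gene narrows its range, which can by itself lower r. The fall therefore cannot tell how far the relations rest on those tumours. Areg and Nrg1 had an r of 0.81 (permutation p = 0.0054, adjusted 0.0505) and a rho of 0.66 (permutation p = 0.0442, adjusted 0.110). Their r was 0.55 without the 2 tumours farthest from the median of Areg, with the same limit, and 0.88 within genotypes. Areg and Ereg, neighbours in the genome, had an r of 0.73 (permutation p = 0.0173, adjusted 0.0699) and a rho of 0.81 (permutation p = 0.0071, adjusted 0.0700), but only 0.31 within genotypes.

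**Figure D4:**
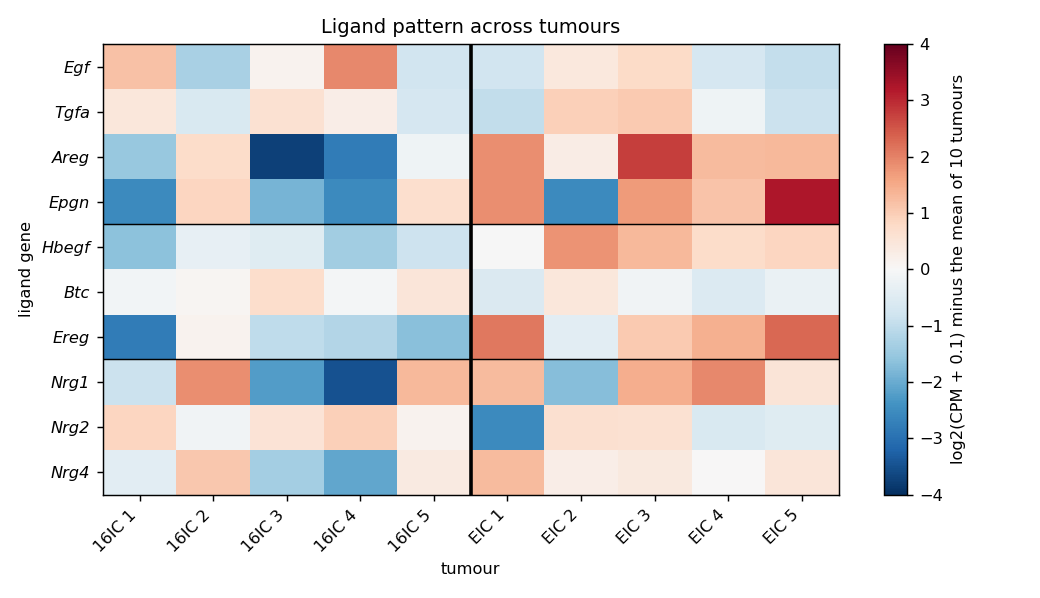
Level of each ligand in each tumour relative to that ligand's mean over the 10 tumours, on a log2 scale with a pseudocount of 0.1 CPM, with the 16IC tumours left of the EIC tumours. The Hbegf row separates the genotypes, while the Tgfa and Nrg2 rows are high in EIC 2 and EIC 3 and low in EIC 1.

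For each ligand with a mean of at least 1 CPM, the genes with the most similar pattern over the 10 tumours were taken from 14376 genes, by Pearson r of log2 CPM. With so many genes and 10 tumours, high values arise easily, and they are given as a description. Hbegf was nearest to Homer3 (r = 0.94), Kif27 (0.93) and Ano8 (0.93), Areg to Ncam1, Noct and Lrp1 (each 0.96), and Ereg to Slc4a11 (0.95), Klk6 (0.94) and Ubtd2 (0.94). Epgn was nearest to Ceacam20, Nek3 and Vwa1 (each 0.97), and Tgfa to Rflna (0.97), Dsc2 (0.96) and Nos1ap (0.96). Egf was nearest to Ccdc6 (0.96), Slc22a8 (0.95) and Tmprss11a (0.94), Btc to Fam120b (0.97), Gid4 (0.93) and 4921507P07Rik (0.93), Nrg1 to Wisp1 (0.98), Ptn (0.97) and Map1b (0.97), and Nrg2 to Spire1, Gm31108 and Lman2 (each 0.93). Klk6, which encodes a kallikrein protease, averaged 0.681 CPM in 16IC and 21.1 CPM in EIC, and Lrp1, a large endocytic receptor, 77.2 CPM in 16IC and 204.9 CPM in EIC.

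The genes around both ligand loci were examined for the same difference. In the window from 500 kb before Epgn to 500 kb after Btc, 7 genes other than the ligands were tested, with a median log2 difference of -0.35. Of these, 2 were higher and 5 lower in 16IC, beside 7114 higher and 7801 lower of all 14915 genes tested. Unadjusted edgeR p was under 0.05 for 2 of the 7, Cxcl5 and Mthfd2l, beside 13.1% of all genes tested. Cxcl5, which encodes a neutrophil-attracting chemokine, had 0.566 CPM in 16IC and 2.53 CPM in EIC (log2 -2.13, edgeR unadjusted p = 0.0450, adjusted p = 0.370), and Mthfd2l, a mitochondrial folate enzyme next to Epgn, had 20.7 CPM in 16IC and 15.6 CPM in EIC (log2 0.41, unadjusted p = 0.0327, adjusted p = 0.354). The 2 other genes between Epgn and Btc had 3 and 11 counts in all libraries together and were not tested. In the same window around Nrg2 and Hbegf, 31 other genes were tested, of which 8 were higher and 23 lower in 16IC, with a median of -0.16. The 5 genes between Nrg2 and Hbegf differed by -0.68 to 0.01, lowest for Igip (edgeR unadjusted p = 0.0402, adjusted p = 0.362). Outside that stretch, Slc23a1, which encodes a vitamin C transporter, had 0.363 CPM in 16IC and 1.41 CPM in EIC without overlap (log2 -1.93, edgeR adjusted p = 0.249, DESeq2 adjusted p = 0.0164). Prob1 differed by -1.87 (edgeR unadjusted p = 0.0156, adjusted p = 0.304) and Ube2d2a by -0.47 (edgeR unadjusted p = 0.0148, adjusted p = 0.300). Igip, Slc23a1, Prob1 and Ube2d2a were the 4 of the 31 other genes with an unadjusted edgeR p under 0.05, which is near the 13.1% of all genes tested.

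**Figure D5:**
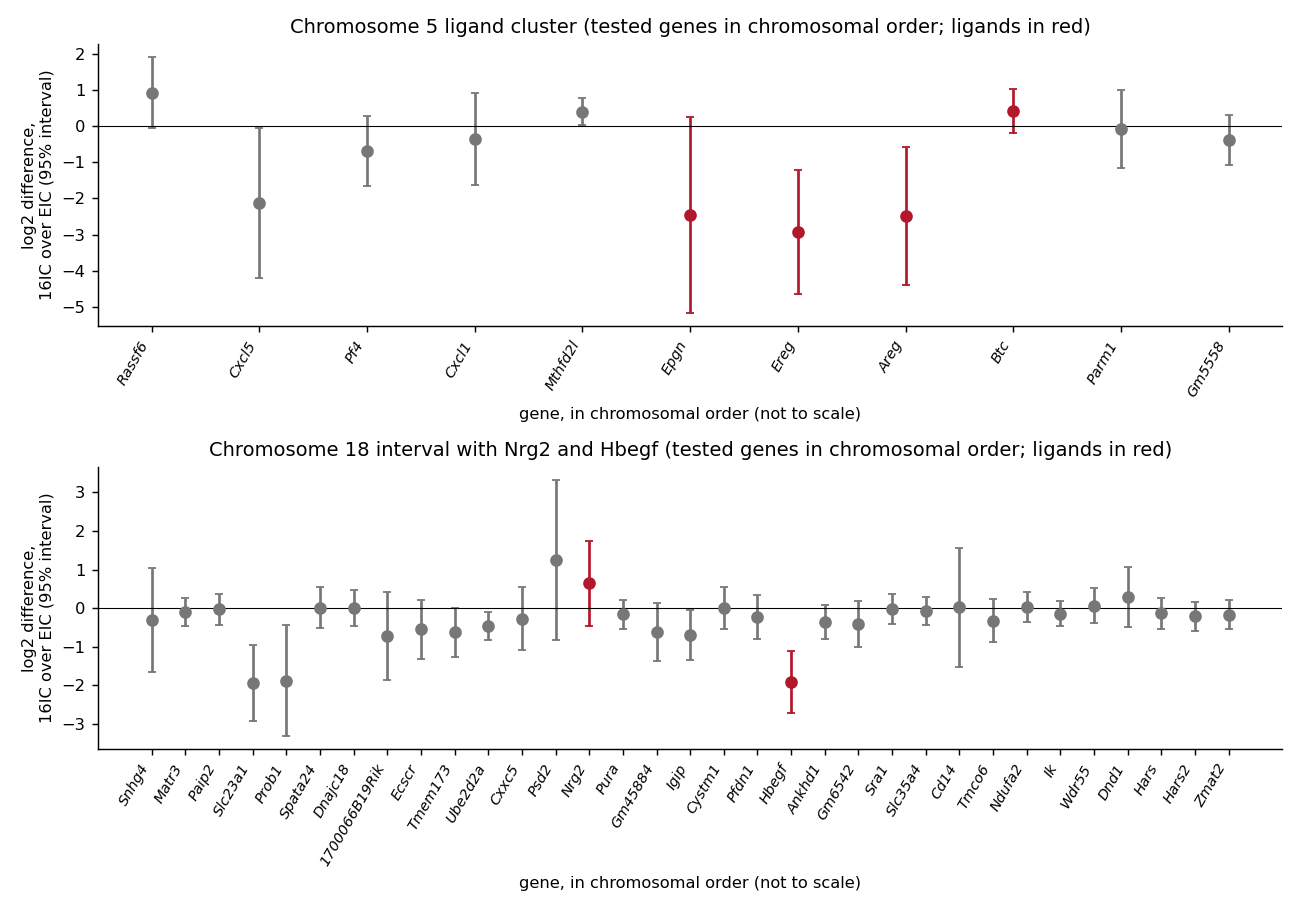
Log2 difference, 16IC over EIC, of the tested genes around both ligand loci, in their order along the chromosome, with 95% intervals from edgeR. Epgn, Ereg and Areg lie near -2.5 to -2.9 beside Btc at 0.42, and Hbegf lies at -1.91, below the tested genes between it and Nrg2 (-0.68 to 0.01).

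Of the 4 ERBB receptor genes, 0 passed edgeR or DESeq2 with all tumours included. Egfr had 81.9 ± 28.9 CPM in 16IC and 58.3 ± 21.2 CPM in EIC (log2 0.49, edgeR adjusted p = 0.496). Erbb2 had 127.8 ± 11.8 CPM in 16IC and 127.2 ± 22.2 CPM in EIC (log2 0.01, adjusted p = 0.991), and Erbb3 267 ± 117 CPM in 16IC and 259 ± 102 CPM in EIC (log2 0.04, adjusted p = 0.964). The table does not separate transcripts of a HER2 transgene from those of Erbb2, so this is no measure of a transgene. Erbb4 was low and uneven, with 2.74, 4.58, 2.98, 0.206 and 9.67 CPM in 16IC 1 to 5, against 0.232, 0, 9.77, 0 and 0.0602 CPM in EIC 1 to 5. EIC 3 stood far above the other EIC tumours, and the log2 difference of 1.004 had an SE of 1.48 (edgeR adjusted p = 0.780). Without EIC 3 it was 5.61 (edgeR adjusted p = 0.259), and DESeq2 then called Erbb4 higher. A count of 0 allows up to 0.178 CPM in EIC 2 and 0.188 CPM in EIC 4. The sign of the Erbb2 and Erbb3 differences turned under scaling by total count.

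The genes that release, process and relay the ligands were taken from lists of 12 sheddases and partners, 9 trafficking and processing genes, 10 adaptors, 10 receptor inhibitors and 18 output genes of the MAPK pathway, and all were tested. Higher and lower members numbered 3 and 9 among sheddases, 4 and 5 among trafficking genes, 3 and 7 among adaptors, 3 and 7 among inhibitors and 10 and 8 among output genes, the last split turning to 8 and 10 under scaling by total count. The medians were -0.13, -0.20, -0.10, -0.07 and 0.03 on the log2 scale, beside -0.02 over all genes tested. edgeR passed 0 of these 59 genes after adjustment. Its unadjusted p was under 0.05 for 0 higher and 1 lower sheddases, and for 1 higher and 2 lower trafficking genes. The same held for 1 higher and 3 lower adaptors, 0 higher and 1 lower inhibitors, and 1 higher and 2 lower output genes. Over all genes tested, 6.84% were higher and 6.29% lower with such a p. The higher members were not among the 2 smallest p of their list, which are named below. DESeq2 called Pcsk6, Nkd2, Cblb and Fos, all lower in 16IC. Of all genes it tested, it called 2.11%, and 1.27% as lower in 16IC. These lists were chosen with earlier results of these data known.

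Adam17, which encodes the main sheddase of TGF-alpha, amphiregulin, HB-EGF, epiregulin and epigen, had 92.5 ± 15.9 CPM in 16IC and 126.6 ± 6.51 CPM in EIC (SD, n = 5 each), without overlap. Its log2 difference was -0.45 (SE 0.13, edgeR adjusted p = 0.286, DESeq2 adjusted p = 0.0718). DESeq2 called it in the 1 fit of 10 that left out 16IC 3. Adam10, the main sheddase of EGF and betacellulin, had 194 ± 13.6 CPM in 16IC and 216 ± 23.2 CPM in EIC (log2 -0.16, edgeR adjusted p = 0.578). Bace2, from the same list, had 37.3 ± 24.0 CPM in 16IC and 21.8 ± 5.94 CPM in EIC (log2 0.77, edgeR adjusted p = 0.417). Pcsk6, a proprotein convertase, had 18.3 ± 11.9 CPM in 16IC and 89.8 ± 46.1 CPM in EIC, again without overlap (log2 -2.29, edgeR adjusted p = 0.249, DESeq2 adjusted p = 8.78e-04). DESeq2 called it whichever tumour was left out. Nkd2, which escorts TGF-alpha vesicles to the basolateral membrane, had 24.0 ± 24.9 CPM in 16IC and 174 ± 163 CPM in EIC (log2 -2.86, edgeR adjusted p = 0.290, DESeq2 adjusted p = 0.0263), and DESeq2 lost it in 6 of 10 fits that left out 1 tumour (16IC 1, 3 or 4, or EIC 1, 4 or 5).

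Of the receptor inhibitors, Cblb, a ubiquitin ligase that sends activated EGFR for degradation, had 15.0 ± 2.62 CPM in 16IC and 33.4 ± 15.7 CPM in EIC (log2 -1.15, edgeR adjusted p = 0.286, DESeq2 adjusted p = 0.0491). DESeq2 kept this call in 2 of the 10 fits that left out 1 tumour, those without 16IC 5 or EIC 2. Cblc, of the same family, had 49.8 ± 11.3 CPM in 16IC and 39.0 ± 5.996 CPM in EIC (log2 0.35, edgeR adjusted p = 0.423). Among adaptors, Cbl had 58.8 ± 12.1 CPM in 16IC and 81.4 ± 7.96 CPM in EIC (log2 -0.47, edgeR adjusted p = 0.290), and Shc1 121 ± 16.7 CPM in 16IC and 169 ± 38.2 CPM in EIC (log2 -0.48, edgeR adjusted p = 0.309). Of the output genes, Fos had 43.6 ± 19.4 CPM in 16IC and 109 ± 45.8 CPM in EIC, without overlap (log2 -1.32, edgeR adjusted p = 0.286, DESeq2 adjusted p = 0.0448), and DESeq2 called it in 5 of the 10 fits without 1 tumour. Fosl1 had 1.99 ± 0.96 CPM in 16IC and 4.19 ± 1.46 CPM in EIC (log2 -1.07, edgeR adjusted p = 0.337), which is uncertain because 57.2% of its exon bases overlap Ccdc85b on the opposite strand. The feedback genes Dusp6, Spry2 and Etv5, which MAPK signalling also induces, had log2 differences of 0.66, 0.54 and 0.13, with edgeR adjusted p of 0.463, 0.387 and 0.862. These were picked after their values were seen, from the output list with 10 higher and 8 lower members.

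Marker genes of neutrophils, basal epithelium, skin keratinocytes, fibroblasts, macrophages and skeletal muscle were mostly lower in 16IC, and those of nerve mostly higher. For comparison, 7801 of all 14915 genes tested were lower in 16IC. DESeq2 called 1.27% of the genes it tested as lower and 0.843% as higher. Of 10 listed neutrophil genes, 9 were in the deposited table and 5 were tested, all 5 lower in 16IC. The summed list level was 3.71 to 22.5 CPM in 16IC and 14.4 to 109 CPM in EIC. Genes this scarce in 16IC can pass the filter mainly through EIC, so this split is a description only. DESeq2 called S100a8, Cxcr2, Mmp9 and Ngp of that list. Within EIC the neutrophil sum was highest in EIC 1 (109 CPM) and lowest in EIC 2 (14.4 CPM). Basal and myoepithelial genes were lower in 9 of 10 cases, with a sum of 36.0 to 217 CPM in 16IC and 143 to 675 CPM in EIC. DESeq2 called Krt17, with 0.656 CPM in 16IC and 17.0 CPM in EIC, and Actg2, with 0.810 CPM in 16IC and 6.82 CPM in EIC. Skin keratinocyte genes summed to 7.88 to 10.2 CPM in 16IC and 9.63 to 51.3 CPM in EIC. Only 3 of the 12 listed genes were tested, all lower in 16IC with the same limit of the filter, and DESeq2 called Dmkn. Of the 12, 5 stayed under 1 CPM in every tumour. Fibroblast genes (9 of 10 lower) summed to 402 to 3378 CPM in 16IC and 1750 to 6701 CPM in EIC, and macrophage genes (11 of 11 tested lower) to 249 to 615 CPM in 16IC and 341 to 648 CPM in EIC. The macrophage median was -0.29 on the log2 scale, and 0 of these genes had an unadjusted edgeR p under 0.05. Skeletal muscle genes (8 of 8 lower) summed to 1.16 to 382 CPM in 16IC and 2.70 to 2431 CPM in EIC. Mast cell genes (4 of 5 lower) summed to 375 to 475 CPM in 16IC and 233 to 617 CPM in EIC, nearly all of it Kit. The list of T cells summed to 150 to 287 CPM in 16IC and 91.6 to 146 CPM in EIC, nearly all of it Gata3, a luminal gene too, which DESeq2 called higher. Endothelial genes (5 of 8 lower, or 7 of 8 under scaling by total count) summed to 75.9 to 229 CPM in 16IC and 144 to 242 CPM in EIC, adipocyte genes (7 of 8 lower) to 25.1 to 396 CPM in 16IC and 36.6 to 353 CPM in EIC, and nerve genes (2 of 7 lower) to 832 to 1103 CPM in 16IC and 521 to 1234 CPM in EIC. Whether any of these cell types carried the differences of Hbegf, Ereg and Areg was not tested.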

How the data were processed

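RNA of 10 mammary tumours (5 16IC, 5 EIC) was extracted with a Qiagen RNeasy kit and made into NEBNext Ultra II libraries, per the labels' protocols. Per the submitters' processing notes, the tools were Trimmomatic, STAR, HTSeq, edgeR and limma with GRCm38 (mm10). No source used here gives the annotation release or the strand setting. The deposited table holds raw counts per gene, which the tests use, and the authors' FPKM values, used for levels between ligands. The authors' normalized counts (a signal, counts divided by 1 factor per library) and the log2 fold changes with p-values that the authors deposited, by a tool the headers do not name, served as checks only. For the 10 ligands the deposited values were nearly identical to those of the DESeq2 run here (adjusted p = 2.50e-04 for Hbegf and 0.00968 for Ereg in both). The DESeq2 calls are thus not independent of the deposited results. 14915 genes passed edgeR's filterByExpr (minimum count 10) and were tested with edgeR 4.0.16 (TMM, robust quasi-likelihood fit, genotype only) in R 4.3.3, and 11148 were not. DESeq2 1.42.0 and limma 3.58.1 (voom with quality weights) were alternatives. The tests were tested on simulated data. Single values had an exact two-sided permutation test over all arrangements of the tumours, and correlations used 100000 resamples. The members and lists were chosen with earlier results of these data known. The named genes are the ligands, the receptors, from each pathway list the 2 with the smallest edgeR p and any called by DESeq2, 3 similar genes per ligand, and the cell type markers called. Adam10, Dusp6, Spry2, Etv5 and the neighbouring genes were added after their values were seen, as were Klk6 and Lrp1 for their levels. Overlaps between genes come from GENCODE mouse release M21. The closest pair of libraries, 16IC 2 and 16IC 5, differed by more than sampling noise (a chi-square of 26.3 for each degree of freedom). The labels give no batch and no litter, so p-values measure the spread between tumours. The median biological coefficient of variation was 33.6%.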

Additional observations from a re-analysis of the deposited data

Results flagged for a closer look

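In 28 groups of 5 tumours (10 ligands and 4 receptors in each genotype), 2 held 1 tumour far from the other 4, and chance flags about 1 in 20 groups. Nrg4 was at 1.62 CPM in EIC 1, against 0.625 to 0.903 CPM in the other EIC tumours, a gap of 0.721 of the group's range. Erbb4 was at 9.77 CPM in EIC 3, against 0 to 0.232 CPM in the other EIC tumours, a gap of 0.976 of the range.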

How the results depend on the processing

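edgeR called 0 of 14915 genes, and DESeq2 356, of which 2 are ligands, Hbegf (log2 -1.91) and Ereg (-2.98). Leaving out 1 tumour in turn gave 0 to 2 genes with edgeR (1 without EIC 1, 2 without EIC 2) and 178 to 839 with DESeq2 (178 without 16IC 4, 839 without EIC 2). The ligands called by DESeq2 were then 1 to 3 (1 without EIC 1 or EIC 5, 3 without 16IC 2 or EIC 2), and 0 in every edgeR fit. In these DESeq2 fits Hbegf ranged from -2.09 to -1.64, Ereg from -3.76 to -2.67 and Areg from -3.34 to -2.05. Tgfa changed sign with limma's voom (0.32) and without EIC 2 (edgeR 0.0974, DESeq2 0.0937) or EIC 3 (edgeR 0.142, DESeq2 0.145), and the cause was not tested. It ranged from -0.35 to 0.14 over the fits that left out 1 tumour. The other ligands kept their sign in all settings that gave a value, but voom moved Nrg1 to -1.81, Nrg2 to 1.47 and Nrg4 to -1.19, all past 1.5 times, with the cause not tested. With edgeR, leaving out 1 tumour gave Hbegf -2.09 to -1.63, Areg -3.33 to -2.04, Ereg -3.69 to -2.64 and Epgn -3.15 to -1.72. All 6 pathway list medians stayed within 1 SD of the tumours, with each tumour left out and with total count scaling, though 2 of them changed sign (trafficking to 0.02 without EIC 5, MAPK output -0.15 to 0.18). The stricter filter of 1 CPM in 5 libraries removed Epgn, Ereg and Nrg4, which then have no value. The median of all genes tested was -0.07 with total count scaling. No paired analysis was possible because the labels give no replicate numbers shared between the genotypes. Depth limits Ereg, Epgn, Areg, Nrg1 and Nrg4, which lie near the limit that a count of 0 allows in several tumours.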
